A study of Mus musculus with 6 samples.

Results

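The ATP-binding cassette (ABC) genes described here are the rows of the deposited expression table whose symbols match the pattern Abc, a subfamily letter from a to g, a number and at most 1 further letter. The table holds 18465 genes, and 30 of them are ABC genes. By subfamily there were 7 in A, 8 in B, 5 in C, 3 in D, 1 in E, 3 in F and 3 in G. RefSeq lists 50 mouse genes with such symbols, and the other 20 were not analysed here. The drug and dye pumps Abcb1a, Abcb1b, Abcc1 and Abcg2 are all among the 30. RNA came from SLAM-LSK cells, bone marrow cells sorted as positive for Sca-1, c-Kit and CD150 and negative for CD48 and for lineage markers, a gate that enriches haematopoietic stem cells. Libraries were made from 3 wild-type (WT) samples and from 3 samples with 1 R751W allele and 1 wild-type allele of Mecom (MecomWT:R751W), all of the C57BL/6 background. Mecom encodes a zinc finger transcription factor needed to maintain stem cells, and the title of the series places it in competition with GATA2. The labels state neither age nor sex, nor how the allele was made, nor that each library came from its own mouse, so p-values measure only the spread between these samples.

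ABC proteins bind and split ATP in paired nucleotide-binding domains. In subfamilies A to D and G these domains power membrane-spanning parts that move lipids, peptides, metals, conjugates or drugs across a membrane. Members of E and F have no membrane-spanning part and act on ribosomes and translation. Stem cells of the bone marrow are known for efflux of fluorescent dyes: P-glycoprotein (Abcb1a and Abcb1b in mice) pumps rhodamine, and Abcg2 pumps the Hoechst dye that defines the side population.

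Values are TPM, which are read numbers divided by gene length and scaled to a total of 1000000 per library. Ratios between libraries within each gene implied whole reads, 10908069 to 12753202 per library. Protein-coding rows took 25.87% to 30.11% of TPM, and the lowest shares were those of WT replicate 2 (25.87%) and MecomWT:R751W replicate 2 (26.02%). For the tested ABC genes, replicate 2 was the lowest WT library in 22 of 28 and the lowest MecomWT:R751W library in 24 of 28, against 64.1% and 64.8% of all tested genes. TPM of the ABC genes depends on that share, so key values are also given as rescaled TPM, scaled to a protein-coding total of 1000000 per library. All 8 stem cell markers checked were present, among them Kit at 181 ± 18.0 TPM in WT, against 157 ± 16.8 TPM in MecomWT:R751W (SD, n = 3). Mecom itself was at 38.2 ± 4.17 and 45.0 ± 5.53 TPM, which overlap (limma adjusted p = 0.958); gene-level TPM do not separate the alleles. Of 10 markers that the gate selects against, 7 were not among the rows and 3 were. Cd48 was at 1.68 ± 0.598 TPM in WT against 3.21 ± 0.915 TPM in MecomWT:R751W, without overlap (limma adjusted p = 0.674). Cd4 was at 1.598 ± 0.643 against 3.53 ± 1.30 TPM and Itgam at 4.56 ± 3.08 against 3.32 ± 0.982 TPM, both with overlap. Summed TPM of 5 listed T and NK cell markers was 9.05 to 10.1 in WT and 19.2 to 21.6 in MecomWT:R751W, without overlap. The largest part was Nkg7, at 4.31 ± 0.432 against 11.2 ± 1.48 TPM, without overlap (limma adjusted p = 0.0856). Thy1 was at 1.65 against 3.28 TPM, also without overlap. Cd4, Lck (1.58 and 1.75 TPM) and Klrb1c (0.455 and 0.495 TPM) overlapped. The other 6 markers of that list, Cd3e among them, were not among the rows. Erythroid markers (10 of 13 listed) summed to 319 to 392 TPM in WT against 316 to 387 TPM in MecomWT:R751W, nearly all of it Car2 (322 ± 37.0 and 303 ± 40.5 TPM). The other 9 had log2 fold changes above 0, and the median over the 10 was 0.35. Without overlap between genotypes, mean TPM was 1.81 in WT against 4.16 in MecomWT:R751W for Klf1, 0.829 against 4.44 for Car1, 0.773 against 2.58 for Ermap and 0.690 against 2.34 for Rhd. These 4 had an unadjusted p under 0.05, and their lowest limma adjusted p was 0.236. Over all tested genes, 5.97% had an unadjusted limma p under 0.05. Values did not overlap and were higher in MecomWT:R751W in 4.5% of all tested genes. The part of such cells in the ABC values was not tested, and in a bulk sample fewer cells of a type and less RNA per cell cannot be told apart.

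The ABC genes taken as a sum differed by less than the spread between libraries. Their summed level was 444 ± 48.8 TPM in WT, against 443 ± 39.3 TPM in MecomWT:R751W (SD, n = 3 each). After rescaling, the sums were 1567 ± 53.0 and 1568 ± 46.1 rescaled TPM, a spread over libraries of 1510 to 1618. Among single genes, Abce1 had the highest mean over the 6 libraries (59.3 TPM), followed by Abcc1 (37.2 TPM), Abcf2 (33.0 TPM), Abcf1 (30.7 TPM), Abcg2 (29.0 TPM) and Abca2 (29.0 TPM). The library ranges of Abcf2, Abcf1, Abcg2 and Abca2 overlapped, so the order among these 4 is not beyond their spread. The lowest were Abcb9 (0.453 TPM) and Abca8b (0.172 TPM). In all, 18 of the 30 lay above the median level of the protein-coding rows, and Abce1 lay above 93.8% of them.

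**Figure D1:**
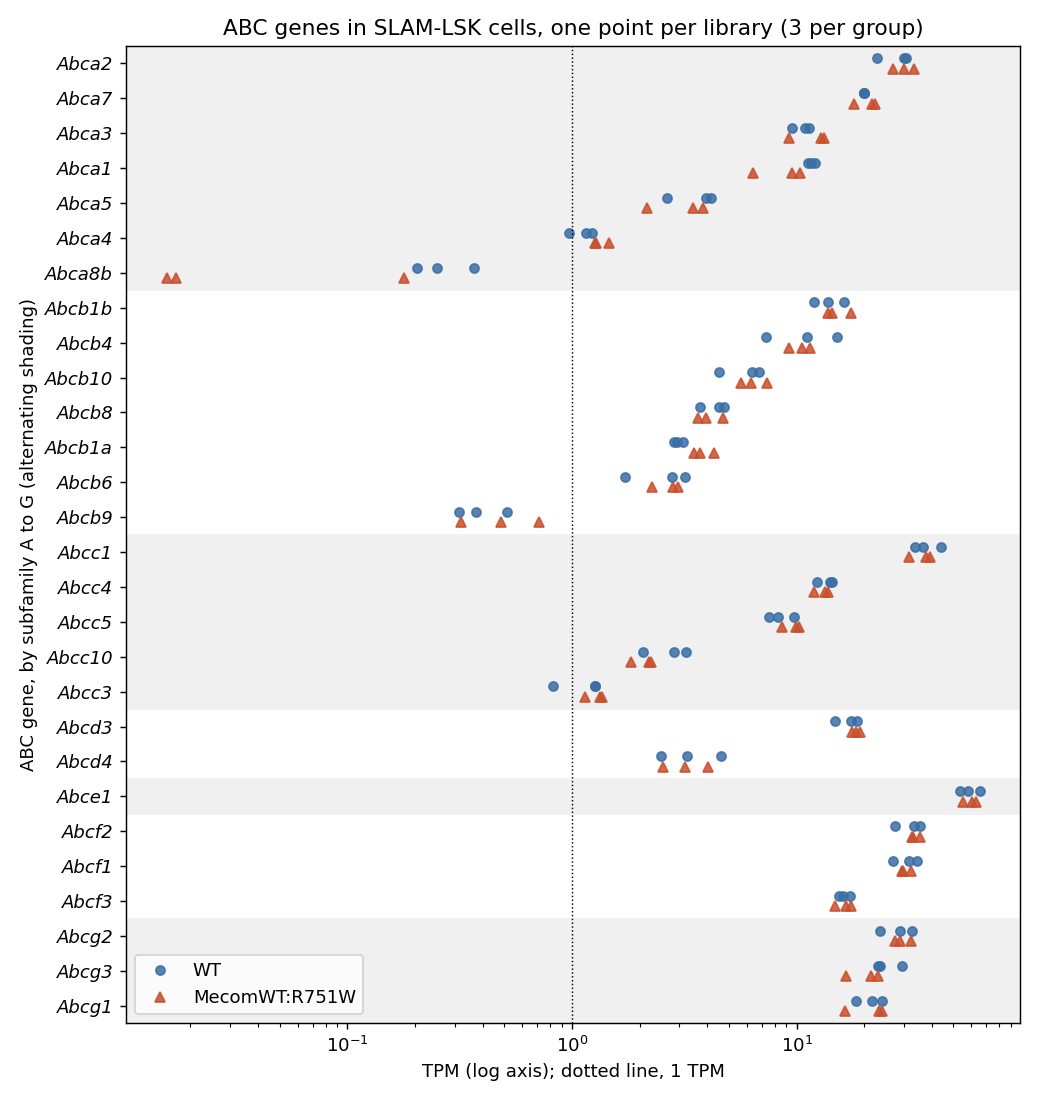
TPM on a log axis of 28 of the 30 ABC genes, grouped by subfamily, with 1 point per library (circles, 3 WT; triangles, 3 MecomWT:R751W). The dotted line marks 1 TPM, the smallest mean level for testing; Abcb9 and Abca8b lie below it, and the genotypes overlap in most of the other genes.

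The comparison of the genotypes asks whether 1 altered Mecom allele changes expression in the stem cell fraction. The 16655 genes whose mean reached 1 TPM were tested with limma on log2(TPM + 1), with p-values adjusted over all of them by the Benjamini-Hochberg method. Of the 30 ABC genes, 28 were tested, and 0 passed an adjusted p of 0.05. Over all tested genes 0% passed as well. At an unadjusted p under 0.05 there was 1 ABC gene, Abca1, while 5.97% of all tested genes were under it and 3.23% were under it and lower, as Abca1 was. Values in the 2 genotypes did not overlap in 3 of the 28, Abcb1a and Abca4 (higher in MecomWT:R751W) and Abca1 (lower), where 9.19% of all tested genes did not overlap, 4.5% higher and 4.7% lower. In a fit on protein-coding rows only, 1.16% of genes passed the adjusted threshold, and in a voom fit on the implied reads 0.318% did, with 0 ABC genes in either. The median log2 fold change of MecomWT:R751W against WT was 0.03 over the 28 ABC genes and -0.00 over all tested genes, with 16 ABC genes above 0 and 12 below. For 23 of the 28 the fold change was smaller than its standard error (SE), so no direction is read from those. The SE ran from 0.13 to 0.22. Among the others were Abca1, Abcg3 and Abcc10, lower in MecomWT:R751W, and Abcb1a, higher.

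**Figure D2:**
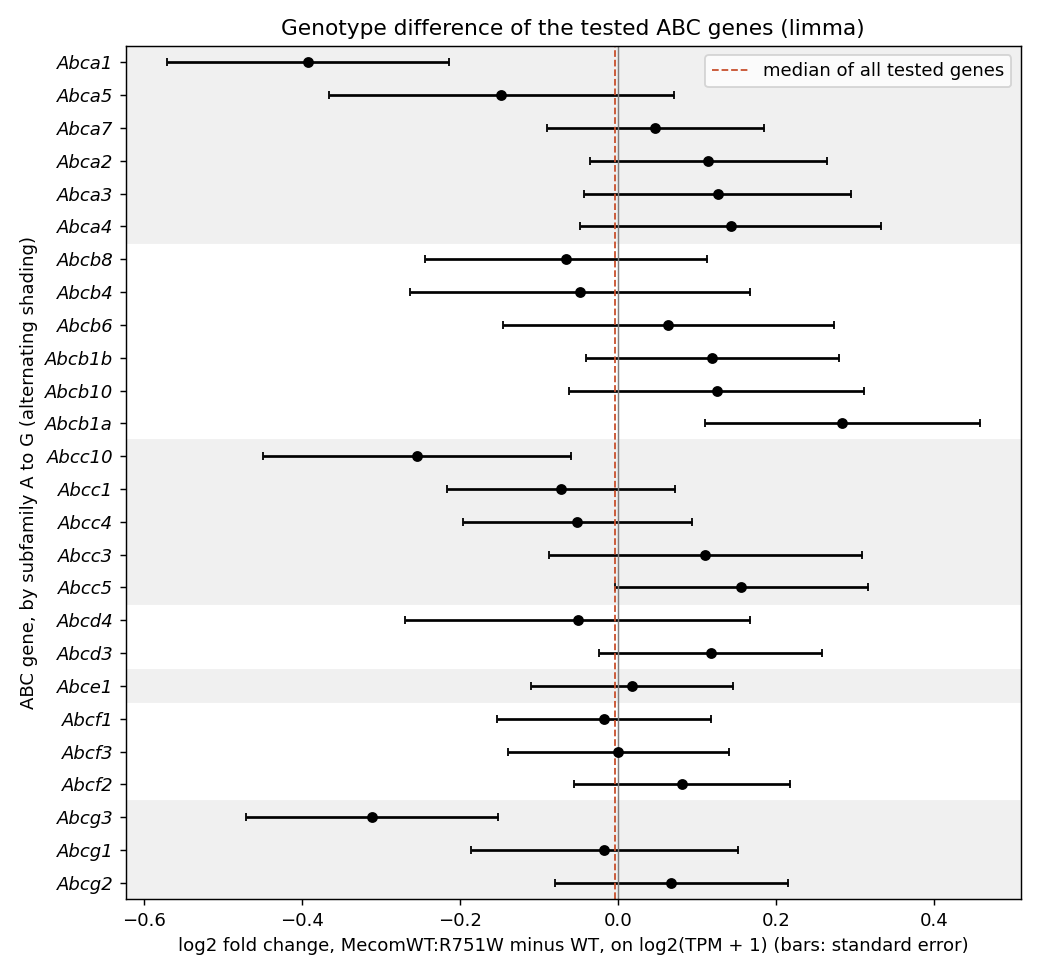
log2 fold change of MecomWT:R751W against WT on the log2(TPM + 1) scale for 26 of the 28 tested ABC genes, by subfamily, with bars of 1 standard error. Of those drawn, Abca1 (-0.39) lies farthest below 0 and Abcb1a (0.28) farthest above, and none passed the adjusted threshold.

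The dye and drug pumps were all expressed, at levels from 3.40 TPM (Abcb1a) to 37.2 TPM (Abcc1). Abcb1a, 1 of the genes for P-glycoprotein, was read at 2.93, 3.12 and 2.84 TPM in replicates 1, 2 and 3 of WT, in which order all libraries are given, against 3.73, 3.49 and 4.27 TPM in MecomWT:R751W. Every MecomWT:R751W library was above every WT library. The log2 fold change was 0.28 (SE 0.17, 95% interval -0.09 to 0.66, limma adjusted p = 0.959). It was 0.15 with a pseudocount of 5, which damps low genes, and 0.36 with a pseudocount of 0.1. After rescaling, 29 ABC genes reached the level for testing, and 3 did not overlap between genotypes, 2 higher and 1 lower, where 15% of 18211 genes did not overlap, 7.2% higher and 7.78% lower. Abcb1a was among these 3, at 10.5 ± 1.32 and 13.6 ± 1.12 rescaled TPM (SD, n = 3). The row rests on 120 to 196 implied reads per library, a counting error of 7.14% to 9.13%.

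Abcb1b, the second P-glycoprotein gene of the mouse, stood at 16.2, 11.9 and 13.8 TPM in the WT libraries and at 14.4, 13.8 and 17.5 TPM in the MecomWT:R751W libraries, which overlap. Its log2 fold change was 0.12 (SE 0.16, 95% interval -0.23 to 0.47). Per length, Abcb1b was 3.82 to 5.53 times the level of Abcb1a in WT and 3.85 to 4.09 times in MecomWT:R751W, as the reads were assigned. These genes and Abcb4 follow each other on chromosome 5 from 8567091 to 8959226 (GRCm38), with no other RefSeq gene lying wholly between them.

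The coding sequences of the 3 neighbours are alike over long stretches. Abcb1a and Abcb1b were identical at 88.2% of aligned coding bases, and 20.3% of the 50-base windows of either one occurred unchanged in the other. With Abcb4, Abcb1a shared 3.36% of its windows and Abcb1b 1.75%. Among all 435 pairs of the 30 ABC genes, these were the 3 pairs with any shared window. The stretches below code for the ABC signature of the first nucleotide-binding domain. They are shown because a read from this stretch cannot tell Abcb1a from Abcb1b, and a capital marks the position where the 3 genes differ.
Abcb1a: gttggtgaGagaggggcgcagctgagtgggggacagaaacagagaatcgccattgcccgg
Abcb1b: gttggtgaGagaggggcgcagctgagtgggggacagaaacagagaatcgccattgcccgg
Abcb4: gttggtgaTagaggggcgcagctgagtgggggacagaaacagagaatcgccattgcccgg
The 60 bases were the same in Abcb1a and Abcb1b, and Abcb4 differed at 1 position. How reads shared between these genes were counted is not stated in the labels, so the split of P-glycoprotein reads between Abcb1a and Abcb1b is uncertain.

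Outside the coding part the P-glycoprotein genes differ. The windows below run from 250 bases before to 50 bases after the RefSeq start (GRCm38.p6, strand of the gene, 5′ to 3′). They are shown because these genes are neighbours on the chromosome. Whether the windows bear on the levels of the genes was not tested. Capitals mark matches, on either strand, to 6 motifs: the GC box GGGCGG, the CCAAT box CCAAT, the GATA core GATAAG, the E-box CACGTG, the AP-1 site TGACTCA and the ETS-type core TTCCGG, and to the direct repeat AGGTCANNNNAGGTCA described below with Abca1. Abcb1a is at chr5:8566841-8567140 and Abcb1b at chr5:8797897-8798196.
Abcb1a: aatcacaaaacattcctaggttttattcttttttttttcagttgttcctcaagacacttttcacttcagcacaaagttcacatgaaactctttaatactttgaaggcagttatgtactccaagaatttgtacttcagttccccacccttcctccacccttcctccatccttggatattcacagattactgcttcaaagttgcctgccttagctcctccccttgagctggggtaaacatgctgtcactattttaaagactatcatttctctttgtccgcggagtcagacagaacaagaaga
Abcb1b: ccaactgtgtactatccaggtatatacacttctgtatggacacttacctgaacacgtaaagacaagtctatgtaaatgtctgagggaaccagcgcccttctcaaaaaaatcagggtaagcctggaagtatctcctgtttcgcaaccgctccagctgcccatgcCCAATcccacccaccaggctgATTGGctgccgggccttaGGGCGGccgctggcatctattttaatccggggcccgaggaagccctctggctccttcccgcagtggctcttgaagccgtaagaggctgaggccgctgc
The Abcb1b window holds a CCAAT match on each strand and a GC box, and the Abcb1a window matched none of the motifs. The Abcb1a window is at the outer end of the gene as RefSeq lists it, a span that overlaps Rundc3b (mean 1.55 TPM). Whether these cells use that start was not tested, so the window may not be the promoter in use. Of all 32851 windows of this length, 37.4% hold CCAAT and 35.7% hold the GC box. A match is a description of letters and not of a bound site.

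Abcg2, the pump of the side population, was at 32.6, 23.6 and 28.8 TPM in WT, against 32.4, 27.4 and 28.9 TPM in MecomWT:R751W. The MecomWT:R751W range lies within the WT range, and the lowest library of each genotype was replicate 2. The log2 fold change was 0.07 (SE 0.15, 95% interval -0.25 to 0.39). Abcc1, which exports glutathione conjugates and leukotriene C4, was at 44.1, 33.7 and 36.6 TPM in WT, against 39.1, 31.6 and 37.8 TPM in MecomWT:R751W. These overlap too, with a log2 fold change of -0.07 (SE 0.14, 95% interval -0.38 to 0.24). In exact two-sided permutation tests of TPM, where a design of 3 against 3 cannot go below 0.1, the values were p = 0.1 for Abcb1a, 0.4 for Abcb1b, 0.7 for Abcc1 and 0.8 for Abcg2. Adjusted over the 4 pumps they were 0.4, 0.8, 0.8 and 0.8.

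Subfamily A holds lipid transporters, and of its 6 tested members Abca1 alone had a log2 fold change larger than its SE. Abca1, which hands cholesterol and phospholipid to apolipoproteins at the cell surface, was at 12.1, 11.2 and 11.6 TPM in WT, against 10.4, 6.42 and 9.51 TPM in MecomWT:R751W. All MecomWT:R751W libraries were below all WT libraries, and replicate 2 was lowest by far. The log2 fold change was -0.39 (SE 0.18), with an unadjusted p of 0.0474 and a limma adjusted p of 0.825. Rescaled values were 41.1 ± 1.88 and 30.8 ± 5.42 rescaled TPM (SD, n = 3), again without overlap. The unadjusted p was under 0.05 in 12 of 19 alternative settings. Without MecomWT:R751W replicate 2 the log2 fold change was -0.21.

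The start of Abca1 (chromosome 4, gene from 53030789 to 53159988) is shown because the gene is a known target of the liver X receptors, which bind direct repeats of AGGTCA with 4 spacer bases. The window, at chr4:53159846-53160145 on the minus strand, carries GC boxes, an E-box and, on the opposite strand, a repeat with 3 mismatches in the 12 fixed bases, all in capitals.
Abca1: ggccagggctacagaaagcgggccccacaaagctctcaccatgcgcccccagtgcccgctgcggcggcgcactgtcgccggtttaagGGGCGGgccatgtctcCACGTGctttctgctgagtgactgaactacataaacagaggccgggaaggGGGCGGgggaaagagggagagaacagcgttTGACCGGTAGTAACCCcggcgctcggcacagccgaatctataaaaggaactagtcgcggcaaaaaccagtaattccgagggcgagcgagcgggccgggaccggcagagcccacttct
With at most 3 mismatches such a repeat occurs in 21.9% of all windows, and with at most 2, where Abca1 has none, in 3.02%. The wider limit was chosen after the stricter one gave no match in Abca1. Of the 30 ABC genes, 23 had a start in the RefSeq table, with 29 windows in all. The repeat with at most 3 mismatches was in 2 of the 23 genes, Abca1 and Abcc10, and only Abcc10 held it with at most 2. The GC box was in 20 of the 29 windows (17 genes), the ETS-type core in 10 (9 genes) and the CCAAT box in 8 (7 genes). The E-box was in 4 windows of 4 genes, the AP-1 site in 0, and GATAAG in 2, of Abcb4 and Abcg2. Over all windows the E-box is in 7.15%, the ETS-type core in 14.9%, the AP-1 site in 5.2% and GATAAG in 7.44%.

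Abca2, a lipid transporter of lysosomes and the most abundant of subfamily A, stood at 30.1, 22.8 and 30.6 TPM in WT, against 30.1, 26.9 and 33.3 TPM in MecomWT:R751W. The genotypes overlapped (log2 fold change 0.11, SE 0.15). Abca7, also a lipid transporter and studied for its link to Alzheimer disease, was at 19.93, 19.98 and 19.96 TPM in WT, against 21.6, 18.1 and 22.5 TPM in MecomWT:R751W. The WT values were close to each other in TPM, but rescaled they spread as 70.9 ± 5.72 rescaled TPM (SD, n = 3). Abca3, known for surfactant lipid in the lung, had 10.6 ± 0.944 and 11.8 ± 2.20 TPM, and Abca5 had 3.58 ± 0.824 and 3.16 ± 0.880 TPM.

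Abca4, the retinoid flippase of photoreceptors, was at 1.23, 1.15 and 0.965 TPM in WT, against 1.27, 1.28 and 1.45 TPM in MecomWT:R751W. These did not overlap in TPM but did after rescaling, and the log2 fold change was 0.14 (SE 0.19). The level rests on 78 to 115 implied reads per library. Abca8b was under the level for testing. It had 15, 24 and 14 implied reads in WT and 1, 1 and 12 in MecomWT:R751W. Nearly all rows of the table (99.95%) have at least 10 implied reads in at least 3 libraries, so a gene this low could be listed only if enough libraries were on the high side, and no fold is given. Abca3 shares 914 exonic bases with D330041H03Rik on the other strand (GENCODE M21), a row at 10.7 TPM, and without knowledge of the strand setting the reads there cannot be told apart. Among genes that are not rows of the table, Gm29253 shares 55.2% of the exonic bases of Abcb6 on the same strand, and on the opposite strand Gm42686 shares 10.1% of those of Abcb1a and Gm45890 10.3% of those of Abcb10, so these levels carry a like uncertainty. The other overlaps, of Abca8b, Abcb1b, Abcb9 and Abcc10, cover 0.744% to 3.25%.

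Abcb10, a mitochondrial transporter tied to haem synthesis in red cell precursors, was at 5.87 ± 1.203 TPM in WT, against 6.44 ± 0.897 TPM in MecomWT:R751W (SD, n = 3). Abcb8, of the inner mitochondrial membrane, was at 4.33 ± 0.537 and 4.10 ± 0.561 TPM, and Abcb6, a porphyrin transporter, at 2.57 ± 0.764 and 2.68 ± 0.365 TPM. In each of these the genotypes overlapped. Abcb4, the phosphatidylcholine flippase of the liver, varied most among WT libraries of the tested ABC genes, at 15.2, 7.33 and 11.2 TPM, against 11.4, 9.30 and 10.6 TPM in MecomWT:R751W. Its log2 fold change was -0.05 (SE 0.22), and it was -0.30 without WT replicate 2 and 0.18 without WT replicate 1. Abcb9, a lysosomal peptide transporter below the level for testing, had 14 to 20 implied reads in WT and 12 to 31 in MecomWT:R751W.

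In subfamily C, the exporters of conjugates and nucleotides, 2 of 5 members lay above 0 and 3 below. Abcc4, which exports cyclic nucleotides and prostanoids, was at 13.6 ± 1.12 TPM in WT, against 13.1 ± 0.980 TPM in MecomWT:R751W (log2 fold change -0.05, SE 0.14). Abcc5, a close relative that also moves cyclic nucleotides, was at 8.54 ± 1.13 and 9.60 ± 0.859 TPM (0.16, SE 0.16). Abcc10 was at 2.86, 2.07 and 3.23 TPM in WT, against 1.84, 2.20 and 2.25 TPM in MecomWT:R751W. The genotypes overlapped through WT replicate 2 (-0.25, SE 0.20), and without WT replicate 3 the log2 fold change was -0.16. Abcc3, an exporter of bile acid and glucuronide conjugates, was near the level for testing, at 1.12 ± 0.254 and 1.28 ± 0.123 TPM.

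Subfamily D brings fatty acids and cobalamin across the membranes of peroxisomes and lysosomes. Abcd3, which carries branched-chain fatty acids and was the most abundant of the 3, was at 17.5, 14.8 and 18.5 TPM in WT, against 18.4, 17.6 and 19.1 TPM in MecomWT:R751W. The genotypes overlapped, with a log2 fold change of 0.12 (SE 0.14). Abcd4, needed for the release of cobalamin from lysosomes, was at 3.45 ± 1.07 and 3.26 ± 0.748 TPM.

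The members without a membrane part, which work on ribosomes, lay near 0. Abce1, which splits ribosomes for reuse after termination, was at 65.5, 53.3 and 58.1 TPM in WT, against 63.0, 55.2 and 60.5 TPM in MecomWT:R751W. Its log2 fold change of 0.02 (95% interval -0.26 to 0.29) was among those nearest to 0. Rescaled, the MecomWT:R751W libraries stood at 211 ± 1.62 rescaled TPM and the WT libraries at 208 ± 8.48 (SD, n = 3). Abcf2 was at 35.6, 27.3 and 33.4 TPM in WT, against 32.8, 33.1 and 35.6 TPM in MecomWT:R751W, overlapping. Abcf1, which binds the initiation factor eIF2, was at 31.0 ± 3.77 and 30.5 ± 1.57 TPM, and Abcf3, a relative of yeast GCN20, at 16.3 ± 0.954 and 16.3 ± 1.41 TPM. Log2 fold changes of the F members ran from -0.02 to 0.08.

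Besides Abcg2, subfamily G held Abcg1 and Abcg3. Abcg1, which moves sterols towards lipoproteins and is like Abca1 a known target of the liver X receptors, was at 24.0, 18.3 and 21.7 TPM in WT, against 23.2, 16.4 and 24.1 TPM in MecomWT:R751W. The genotypes overlapped, with a log2 fold change of -0.02 (SE 0.17, 95% interval -0.38 to 0.35). Abcg3, a rodent relative of Abcg2, was at 29.5, 23.7 and 23.0 TPM in WT, against 21.4, 16.5 and 23.0 TPM in MecomWT:R751W. The lowest WT and the highest MecomWT:R751W library met at the same level, so the groups overlapped by a hair. The log2 fold change was -0.31 (SE 0.16, limma adjusted p = 0.916), and -0.18 without MecomWT:R751W replicate 2. Abcg2 and Abcg3 shared no 50-base window of coding sequence, with 69.2% identity over aligned bases.

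**Figure D3:**
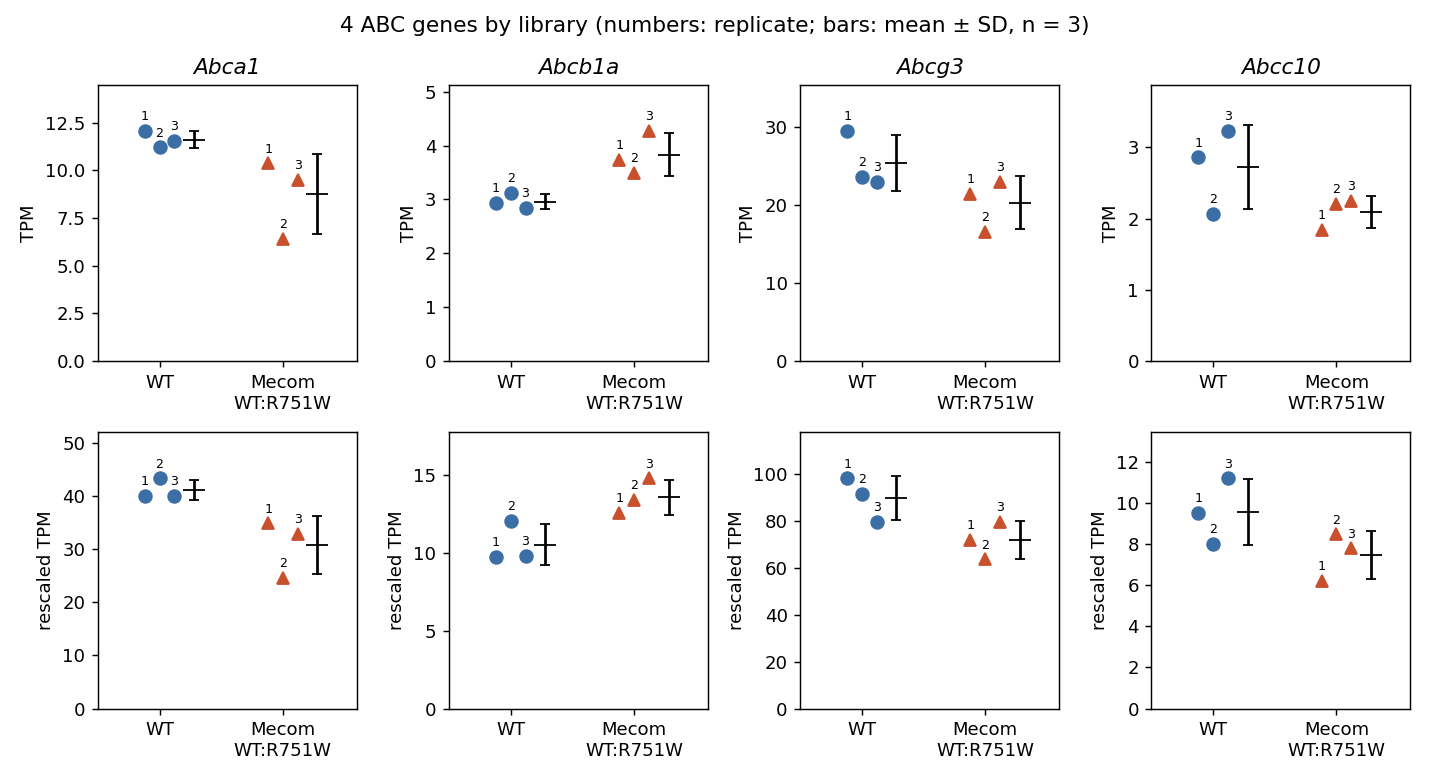
Levels of Abca1, Abcb1a, Abcg3 and Abcc10 in each library, in TPM (top) and in rescaled TPM (bottom), with replicate numbers and mean ± SD (n = 3). Abca1 and Abcb1a do not overlap between genotypes on either scale; Abcc10 and Abcg3 overlap on both.

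Partner genes were described by lists of genes that act with or on ABC proteins, and 0 members of any list passed the adjusted threshold in either direction. Most genes named below were picked for a small unadjusted p within their list. Over all tested genes 9.19% did not overlap between genotypes, 4.5% higher and 4.7% lower. Among regulators of ABC genes 16 of 21 were tested, 5 above 0 and 11 below, with a median log2 fold change of -0.10. Nr1h2, which encodes liver X receptor beta, was at 56.6, 48.6 and 47.8 TPM in WT, against 41.7, 36.4 and 38.9 TPM in MecomWT:R751W. All MecomWT:R751W libraries lay lower (log2 fold change -0.38, SE 0.13, adjusted p = 0.630). Srebf2, the sterol-sensing factor, was at 50.4 ± 5.55 and 39.8 ± 3.66 TPM, also without overlap (-0.33, SE 0.13). Nr1h3, liver X receptor alpha, was near 1 TPM, at 1.29 ± 0.392 and 0.943 ± 0.316 TPM.

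The list of sterol and phospholipid carriers had 13 tested members, 6 above 0 and 7 below, with a median of -0.05. Apoe, an acceptor of the lipid that Abca1 and Abcg1 release, was at 121, 94.7 and 118 TPM in WT, against 84.3, 61.0 and 76.1 TPM in MecomWT:R751W, without overlap (-0.59, SE 0.15, adjusted p = 0.358).

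Transporters of antigenic peptides carry other symbols. Tap1 was at 11.6 ± 0.954 and 11.3 ± 1.05 TPM, and its partner Tap2 at 15.3, 11.6 and 9.49 TPM in WT, against 8.64, 7.63 and 10.6 TPM in MecomWT:R751W, which overlap. All 10 peptide loading partners had values below 0, from -0.14 to -0.00, with a median of -0.06, and all overlapped between genotypes. Only H2-K1 (-0.14, SE 0.12) exceeded its SE, so no direction is read from the others. For peroxisomal partners of Abcd genes, 8 of 17 lay above 0 (median -0.02). For mitochondrial iron, haem and iron-sulfur genes, 18 of 24 did (median 0.07), and for ribosome recycling and translation partners of Abce1 and the F members, 16 of 24 (median 0.04). Of the mitochondrial list, Tmem14c (0.31, SE 0.14) and Flvcr1 (0.33, SE 0.17) were higher in MecomWT:R751W without overlap. Eif3j1, of the translation list, was lower without overlap (-0.49, SE 0.16, limma adjusted p = 0.612). In glutathione and conjugation genes, which supply substrates of Abcc1, 11 of 20 lay above 0 (median 0.03). The quinone reductase Nqo1 had the smallest unadjusted p of that list, at 3.46 ± 0.422 TPM in WT, against 5.83 ± 0.657 TPM in MecomWT:R751W, without overlap (0.61, SE 0.17, adjusted p = 0.468). Over all tested genes 49.0% lay above 0.

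**Figure D4:**
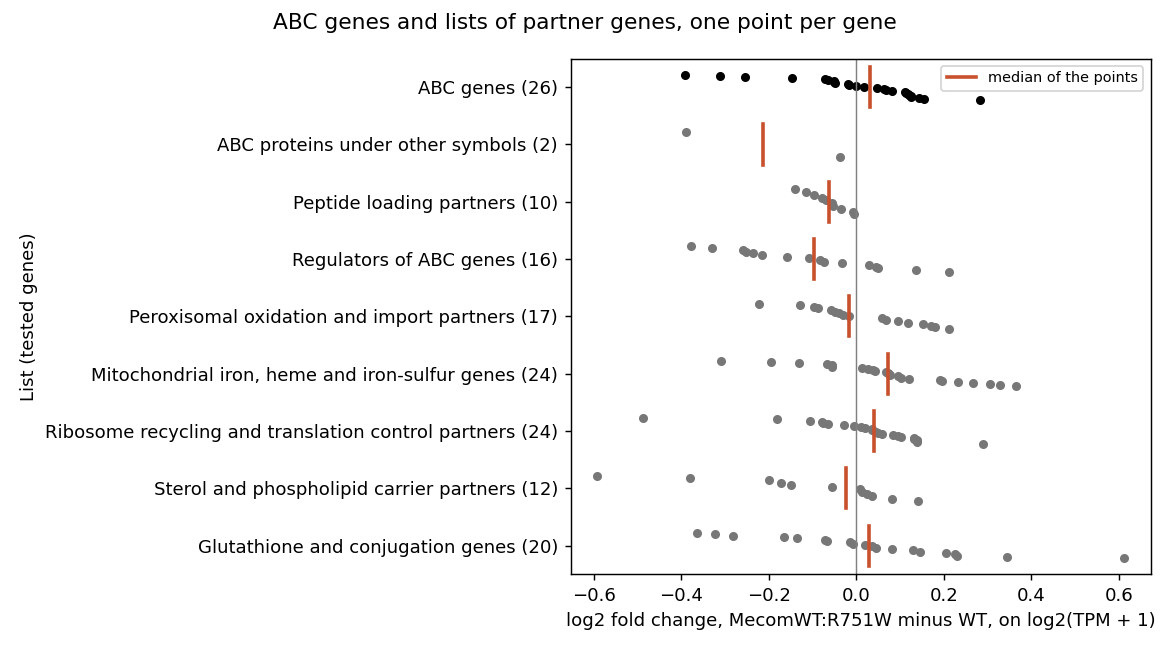
log2 fold change of MecomWT:R751W against WT on the log2(TPM + 1) scale, with 1 point per tested gene and a bar at the median of the points drawn, for 26 ABC genes and 8 lists of partner genes (number drawn in parentheses). The ABC genes lie between -0.39 and 0.28, and of the partner genes drawn Nqo1 (0.61) and Apoe (-0.59) lie farthest from 0 on either side.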

How the data were processed

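RNA-seq of 6 libraries was available as 1 table of TPM that the authors deposited, with 1 column per library. The submitters' processing notes name mm10 and DESeq2 without their roles. For the aligner, counter, strand setting and annotation nothing is stated there or in the labels. The labels name several library kits, with and without rRNA depletion, and not which was used. All 18465 symbols matched RefSeq (GRCm38.p6), of which 12552 are protein-coding. Within 0.001 reads, 100% of genes gave whole numbers of implied reads; on a simulated table of 18465 genes the procedure recovered 99.19% exactly. Intervals of reads cover counting error only.

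Genes whose mean reached 1 TPM were tested two-sided for genotype alone, using limma 3.58.1 under R 4.3.3 with its trend option, on log2(TPM + 1). The fit was also run on simulated data, with changes larger than those of any tested ABC gene. That run does not show how well changes as small as those reported here would be found. A log2 fold change on this scale understates that of low genes. Exact permutation tests used scipy 1.17.1. Values per library are given for the 4 pumps, for members with an unadjusted p under 0.05 or groups that do not overlap, for the most abundant member of each subfamily and for Abca1 and Abcg1. Library values of Abcc10, Abcg3, Abcb4, Abca7 and of partner genes were added after their values were seen. Up to 3 partner genes of smallest unadjusted p could be named per list; Nr1h3, Tap1 and Tap2 were added. Members and lists were chosen with earlier results of these data known. Alternatives changed the pseudocount, filter, scaling, rows tested, variance estimate, weights, unit and replicate block, and left out each library. RefSeq protein sequences were not used here. Some genes enter the counts and medians but their own results are not reported here, nor drawn.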

Additional observations from a re-analysis of the deposited data

How the results depend on the processing

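No ABC gene passed an adjusted p of 0.05 in any of the 28 alternative fits, where the lowest adjusted p of any ABC gene was 0.139 (Abca1, limma-voom on implied reads). The count of all genes called by genotype, 0 in the limma test above, was 2 with a mean of at least 5 TPM, 132 over protein-coding rows only (1.16% of 11394), 1 with array weights and 53 with voom (0.318%). Leaving out 1 library gave 0 to 13 genes, namely 2 and 8 when WT replicate 2 or 3 was left out and 13 when MecomWT:R751W replicate 1 was. Settings added after seeing the data gave 17 for protein-coding rows rescaled to their total, 29 for those rows with the replicate block, and, for those rows less WT replicate 1, 2 or 3 or MecomWT:R751W replicate 1, 2 or 3, the counts 75, 52, 198, 151, 53 and 108. Of the 5 ABC genes whose log2 fold change exceeded its SE, 5 kept their sign in every planned setting; of all 28, 11 did. The median over the ABC genes ran from -0.05 (without WT replicate 2, all genes -0.06) to 0.11 (without WT replicate 1, all genes 0.03). The replicate block called 0 genes and moved no ABC call; deviations of same-numbered libraries correlated at 0.14, 0.089 and 0.083, and each library correlated best with its own number, but the labels do not say that numbers mark a shared source. Depth limits Abca8b and Abcb9, with counting errors up to 100% and 28.9%. The cause of these differences was not tested.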

Other observations

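Ratios of TPM between ABC genes of 1 library do not depend on how the library was scaled. The pairs below were chosen after their values were seen and are given with no test. Abca1 stood at 0.502, 0.611 and 0.532 of the level of Abcg1, the other sterol exporter, in WT replicates 1, 2 and 3, and at 0.446, 0.390 and 0.394 in MecomWT:R751W replicates 1, 2 and 3. Every MecomWT:R751W ratio was below every WT ratio, as was already so for the TPM of Abca1 alone. The share of other pairs of ABC genes that separate in this way was not computed. Abcg3 stood at 0.901 ± 0.102 of Abcg2 in WT and 0.686 ± 0.0981 in MecomWT:R751W (SD, n = 3), and the lowest WT ratio (0.797) was just above the highest MecomWT:R751W ratio (0.795). A ratio shows unequal levels and not which of the genes differs.

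Replicate 2 was the lowest library of its genotype for most ABC genes in TPM, as it was for 64.1% (WT) and 64.8% (MecomWT:R751W) of all tested genes. Small and ribosomal RNA rows together took 58.6% and 58.44% of TPM in WT and MecomWT:R751W replicate 2, against 53.02% to 55.09% in the other 4 libraries. The ribosomal RNA row Rn18s-rs5 was highest in the same libraries, at 65015 TPM in WT replicate 2 and 52154 TPM in MecomWT:R751W replicate 2, against 27594 to 46536 TPM in the other 4. After rescaling to the protein-coding total, replicate 2 was lowest for 15 of the 28 in WT and for 13 in MecomWT:R751W. The share over all genes after rescaling was not computed, so these counts are not read further.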
